A study of Mus musculus with 6 samples.

Results

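Choroid plexus genes are the genes by which the secretory epithelium of the brain ventricles is usually recognised, and 10 of them were followed here through cells sorted from the neonatal mouse cerebellum. They are Ttr, Enpp2, Folr1, Prlr, Kl, Otx2, Aqp1, Clic6, Kcnj13 and Slc4a5, taken by name from the array's own annotation, which holds 24082 gene symbols. All 15 probes of these 10 genes were read, and 5 of the genes had more than 1 probe. Their levels were compared between A+/G+ cells (ACSA-2 positive, GLAST positive) and A-/G+ cells (ACSA-2 negative, GLAST positive), with 3 biological replicates of 50000 cells in each fraction. ACSA-2 is an epitope of the sodium pump subunit Atp1b2, and GLAST is the glutamate transporter encoded by Slc1a3. The labels describe all 6 samples as cerebellum of wild-type CD1 mice at postnatal days 1 to 3, whereas the study's methods give P0/P1 and a C57BL/6 background. Cerebella of either sex were pooled. The A+/G+ cells were enriched with anti-ACSA-2 beads in a single step, and the A-/G+ cells by depletion of cells bearing L1CAM, ACSA-2, CD45, PSA-NCAM or Ter119 followed by selection for GLAST. RNA was amplified, labelled with Cy3 and hybridised to 1-color Agilent mouse arrays. The 3 A+/G+ samples were on slide 1 and the 3 A-/G+ samples on slide 2, and the effects of slide and of fraction therefore cannot be told apart.

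The choroid plexus is a folded epithelium, derived from the roof plate of the neural tube, that hangs into the brain ventricles and secretes cerebrospinal fluid. Its cells release carrier proteins such as transthyretin, take up folate and hormones from blood, and move sodium, potassium, chloride, bicarbonate and water through channels and transporters on their ventricular face. In the hindbrain the tissue lies in the fourth ventricle, directly beneath the cerebellum, and choroid plexus cells are not the astroglial cells that either antibody was used to enrich. Otx2, a homeodomain transcription factor, is required for the development and maintenance of this epithelium and is also made by granule cell precursors of the posterior cerebellum.

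Sequence was drawn on for the transcription factor and for the channel and transporter genes whose levels varied in parallel across the arrays. Promoters of 6 of the 10 genes, 11 in all, were taken by their starts in the RefSeq promoter table of GRCm38.p6. Of these promoters Otx2 had 4 and Prlr 3. Ttr, Folr1, Clic6 and Enpp2 were not part of this search. The 250 bases before each start were searched on both strands for TAATCC, the core that Otx-type homeodomains are known to bind. The letters occurred in 1 of the 11, an Otx2 promoter, on the opposite strand and beginning 211 bases before the start, and in 6.25% of all 32851 promoters of the table. The promoter with the match is shown with those of Aqp1, Kcnj13 and Slc4a5, which had none. Capitals mark the match, which reads GGATTA on the strand printed.
Otx2, chr14:48665110-48665359, minus strand: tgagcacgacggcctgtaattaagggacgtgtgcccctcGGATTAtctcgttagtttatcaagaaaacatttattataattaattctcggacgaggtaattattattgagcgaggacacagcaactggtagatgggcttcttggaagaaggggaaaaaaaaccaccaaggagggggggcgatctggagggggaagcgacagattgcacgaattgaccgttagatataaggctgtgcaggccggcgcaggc
Aqp1, chr6:55336049-55336298, plus strand: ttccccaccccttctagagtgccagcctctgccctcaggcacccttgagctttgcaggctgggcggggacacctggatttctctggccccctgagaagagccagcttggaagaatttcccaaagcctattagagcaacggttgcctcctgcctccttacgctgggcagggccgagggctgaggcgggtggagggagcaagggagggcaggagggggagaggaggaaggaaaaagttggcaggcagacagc
Kcnj13, chr1:87394730-87394979, minus strand: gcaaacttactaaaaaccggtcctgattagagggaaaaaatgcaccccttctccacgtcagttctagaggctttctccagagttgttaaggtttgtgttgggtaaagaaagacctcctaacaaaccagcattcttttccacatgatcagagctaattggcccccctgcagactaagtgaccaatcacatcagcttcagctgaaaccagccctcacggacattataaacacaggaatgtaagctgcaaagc
Slc4a5, chr6:83237125-83237374, plus strand: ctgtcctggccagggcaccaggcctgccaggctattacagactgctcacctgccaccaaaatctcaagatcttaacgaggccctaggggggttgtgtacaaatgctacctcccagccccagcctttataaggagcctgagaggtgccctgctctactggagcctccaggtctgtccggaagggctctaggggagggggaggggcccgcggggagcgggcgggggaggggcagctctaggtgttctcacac

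The 3 A+/G+ arrays each detected 9 of the 10 genes well above background, and 8 of the 10 were so detected on every array of both fractions. No gene of the list was called different between the fractions, where a call needed an adjusted p of at most 0.05 in limma and medians at least 4-fold apart. Over all gene symbols the same limits called 2.62% of them for A+/G+ and 0.44% for A-/G+ as the higher fraction. The mean leaned to A-/G+ for 8 of the genes and to A+/G+ for the remaining pair, Kl and Otx2, and the median of the 10 differences, A+/G+ minus A-/G+, was -0.28 on the log2 scale against -0.03 over all gene symbols. The intervals were wide, since the 95% interval of a difference reached a median of 1.63 log2 units to either side. The methods' t-test called none of the 10 either. An unadjusted p under 0.05 was found for 1 gene, Prlr, by both tests, whereas 30.3% of all gene symbols had one by limma. In these bulk samples fewer choroid plexus cells and less of a transcript per cell cannot be told apart.

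Levels below are log2 intensities after quantile normalization between arrays, given for replicates 1, 2 and 3 of a fraction in that order. A difference is always the A+/G+ mean less the A-/G+ mean, on this scale. Since probes differ in brightness, a level is compared between arrays only and never between genes. The A-/G+ samples also differed as a whole. The 75th percentile of gene probe intensity was 55.9, 112 and 250 on A-/G+ replicates 1, 2 and 3, against 329 to 332 on the A+/G+ arrays, and 18336, 21412 and 24730 of the 55681 probes were well above background there, against 26469 to 26654. The part of this difference in brightness in the results was not tested.

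The secreted products were on all arrays. Ttr encodes transthyretin, the carrier of thyroid hormone and of the retinol-binding protein in cerebrospinal fluid, and was read by a single probe on chromosome 18. Its level was 15.02, 14.55 and 14.33 in A+/G+ and 15.62, 14.37 and 15.35 in A-/G+. The A-/G+ replicate 2 lay among the A+/G+ arrays while the other two A-/G+ arrays lay above all of them, so the fractions overlapped. The means were 14.63 ± 0.35 and 15.11 ± 0.65 (SD, n = 3 each), a difference of -0.48 (SE 0.39, adjusted p = 0.541). Before scaling, the intensity of the Ttr probe ran from 31322 to 48843 in A+/G+, and was 17558, 13404 and 58811 in A-/G+. Enpp2 encodes autotaxin, a secreted enzyme that makes lysophosphatidic acid and is also made by the oligodendrocyte lineage. Its probe at chr15:54670921-54670980 of mm9 gave 13.47, 13.23 and 13.12 in A+/G+ and 13.66, 12.94 and 13.70 in A-/G+. Here the lowest and the highest array were both of A-/G+, and the difference of -0.16 (SE 0.24, adjusted p = 0.700) was smaller than the spread within that fraction, whose SD was 0.43.

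Folr1, the folate receptor that carries folate across the choroid epithelium, varied more than either secreted product. Its brighter probe, at chr7:109006846-109006905, gave 11.03, 10.57 and 10.26 in A+/G+ and 11.35, 9.86 and 12.46 in A-/G+. The A-/G+ fraction thus held both the lowest array, replicate 2, and the highest, replicate 3, and these were 6.05-fold apart, while the A+/G+ arrays spanned 0.77 log2 units. The fractions differed by -0.60 (SE 0.71, adjusted p = 0.629). The dimmer Folr1 probe, at chr7:109016972-109017031, gave 6.44, 6.63 and 6.29 in A+/G+ and 6.66, 5.33 and 8.19 in A-/G+, and in A-/G+ it stood clear of background only on replicate 3, the highest of the 6 arrays, so that no fold against the other A-/G+ arrays is given.

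Kl encodes klotho, a membrane protein that serves as a co-receptor for FGF23 and is shed into cerebrospinal fluid. Its probe at chr5:151795712-151795771 gave 6.0, 6.0 and 5.25 in A+/G+ and 6.0, 4.26 and 6.98 in A-/G+. Within A-/G+ it was well above background on replicate 3 alone, the highest of the 6 arrays, while all 3 A+/G+ arrays were above background. The levels of A-/G+ replicates 1 and 2 are therefore bounds only. The fraction means of 5.75 ± 0.43 and 5.74 ± 1.37 (SD, n = 3 each) differed by 0.01 (SE 0.75, 95% interval -1.93 to 1.94), an interval that spans almost 4-fold in either direction. The sign of this difference turned with the shift to the 75th percentile, with normexp and with 3 of the 6 left-out arrays.

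Prlr was the exception among the 10 genes. It encodes the prolactin receptor, through which the choroid plexus takes up prolactin. The brighter of its 2 probes, at chr15:10259066-10259125, gave 3.54, 3.46 and 2.07 in A+/G+ and 4.47, 5.39 and 4.74 in A-/G+. On this normalized scale Prlr was the one gene of the 10 in which the fractions did not overlap. Every A-/G+ array lay above every A+/G+ array, as was also the case for 23.3% of all gene symbols. Before scaling the Prlr intensities of the fractions overlapped. There A-/G+ replicate 1, at 9.22, lay below A+/G+ replicates 1 and 2, at 17.2 and 14.3, and above A+/G+ replicate 3. Unscaled intensities also carry the brightness of each array as a whole, which was lowest on A-/G+ replicate 1. None of the A+/G+ arrays and 2 of the A-/G+ arrays, replicates 2 and 3, were well above background, so the A+/G+ level is a bound. Set against the dimmest signal well above background on each A+/G+ array, the mean Prlr level of A-/G+ was 2.45-fold higher. That mean includes A-/G+ replicate 1, which was not well above background, so this fold is not a strict lower limit. The fitted difference of -1.85 (SE 0.50) had an adjusted p of 0.0944. The other Prlr probe was above background on no array (adjusted p = 0.493), so no difference is given for it.

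**Figure D1:**
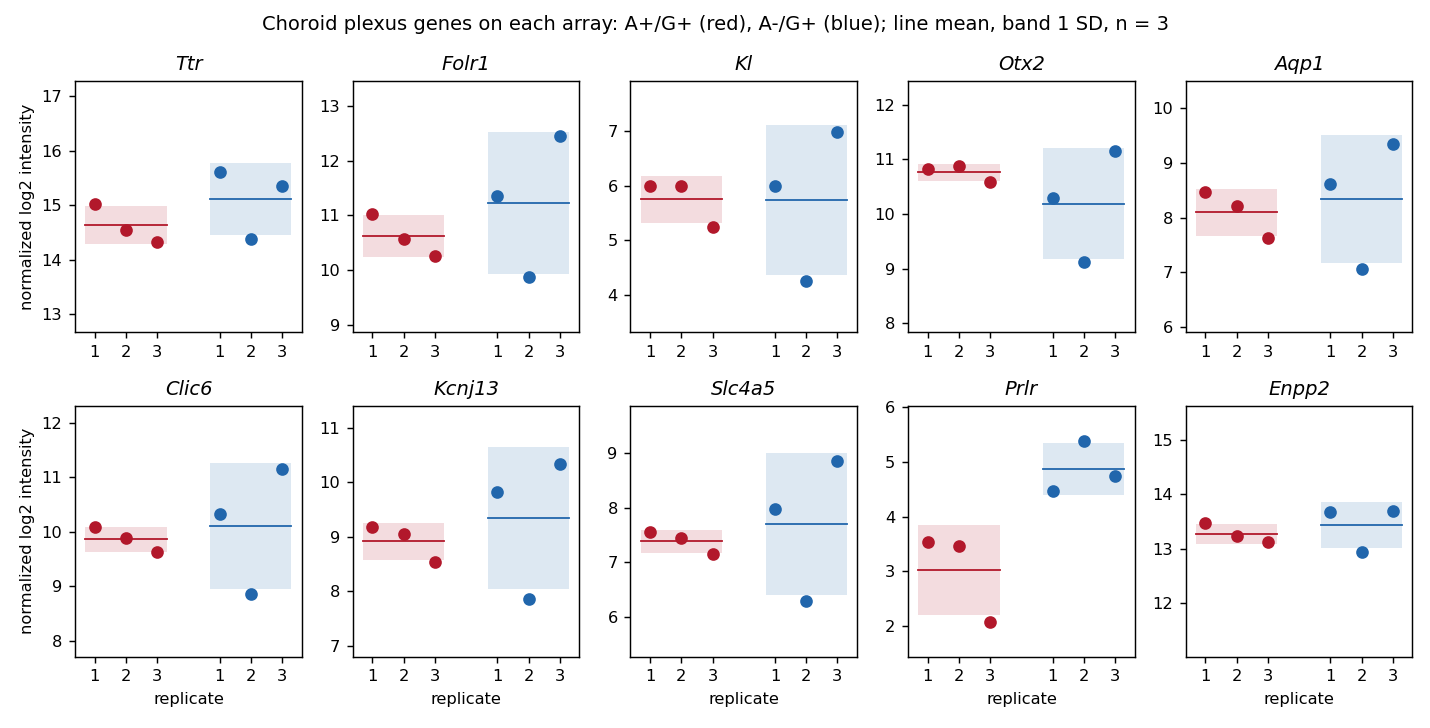
Normalized log2 intensity of the brightest probe of each choroid plexus gene (vertical axis, the same length in every panel) on each of the 6 arrays (horizontal axis, replicate number), with A+/G+ in red and A-/G+ in blue, the line marking the mean and the band 1 SD (n = 3). In 8 of the 10 panels A-/G+ replicate 2 is the lowest and replicate 3 the highest of all 6 arrays, and only in Prlr do the fractions not overlap.

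The levels of the channel and transporter genes varied in parallel over the arrays, with the outer values in A-/G+. Aqp1, the water channel of the choroid epithelium, gave 8.46, 8.21 and 7.62 in A+/G+ and 8.62, 7.05 and 9.35 in A-/G+ at chr6:55298480-55298539. Clic6, a member of the chloride intracellular channel family, gave 10.08, 9.88 and 9.62 in A+/G+ and 10.32, 8.87 and 11.15 in A-/G+ at chr16:92541363-92541422. Both genes were lowest on A-/G+ replicate 2 and highest on A-/G+ replicate 3, with a 4.93-fold step between these arrays for Aqp1 and a 4.87-fold step for Clic6. Kcnj13 encodes the inward rectifier potassium channel Kir7.1. Its brighter probe, at chr1:89282991-89283050, gave 9.17, 9.05 and 8.54 in A+/G+ and 9.83, 7.87 and 10.34 in A-/G+, and its other probe 8.62, 8.51 and 7.98 against 9.67, 8.00 and 9.87. On the second probe A-/G+ replicate 2 lay just above the lowest A+/G+ array, and the outer arrays of A-/G+ were 3.65-fold apart there and 5.55-fold apart on the first. Slc4a5 encodes a sodium bicarbonate cotransporter of the ventricular membrane. Its brighter probe, at chr6:83253664-83253723, gave 7.55, 7.46 and 7.16 in A+/G+ and 7.97, 6.29 and 8.85 in A-/G+, and its other probe 6.69, 6.04 and 5.85 against 7.57, 5.50 and 7.71. The order of the A-/G+ arrays was again replicate 2, replicate 1, replicate 3 on both. The differences between the fractions were -0.24 for Aqp1, -0.25 for Clic6, -0.42 for Kcnj13 and -0.32 for Slc4a5 on the brighter probes, with SEs of 0.61 to 0.70 and adjusted p from 0.728 to 0.840. Without A-/G+ replicate 3 the differences of all 4, and that of Folr1, turned to the other sign, so the higher mean of A-/G+ rested on that array. Without A-/G+ replicate 2 the median of the 10 differences moved from -0.28 to -0.88. In that fit 6 of the 10 genes had an unadjusted p under 0.05 in limma, and none was called. The share of all gene symbols under this limit was not counted there. Without A-/G+ replicate 3 the median was 0.16, and 1 of the 10 genes had an unadjusted p under 0.05.

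Otx2 was the gene of the list whose difference leaned most to A+/G+. The brighter probe, at chr14:49277855-49277914, gave 10.82, 10.88 and 10.59 in A+/G+ and 10.30, 9.12 and 11.15 in A-/G+. The A+/G+ arrays lay within 0.29 log2 units of each other, inside the range of the A-/G+ arrays, of which the lowest and the highest were 4.07-fold apart. The difference was 0.57 (SE 0.54, adjusted p = 0.567), and it ran from 0.041 without A-/G+ replicate 2 to 1.05 (adjusted p = 0.186) without A-/G+ replicate 3, and was 0.13 with the mean of both probes. The second Otx2 probe, at chr14:49284952-49285011, leaned the other way, with 5.29, 5.16 and 5.23 in A+/G+ and 5.53, 4.73 and 6.37 in A-/G+ and a difference of -0.32 (SE 0.43, adjusted p = 0.670). All A+/G+ arrays detected this probe above background, but in A-/G+ only replicate 3 did.

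**Figure D2:**
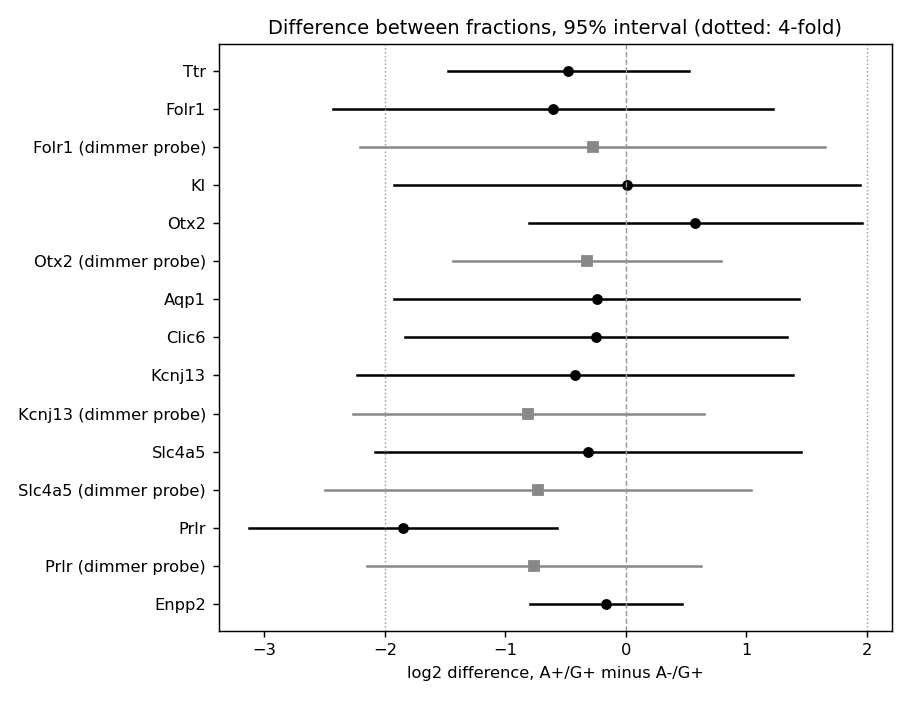
Difference between the fractions (horizontal axis, log2, A+/G+ minus A-/G+) for each of the 15 probes, with its 95% interval from limma; black circles are the brightest probe of each gene and grey squares the dimmer probes, of which that of Prlr was above background on no array. Every interval but that of the brighter Prlr probe, -3.13 to -0.57, crosses 0.

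The A-/G+ samples themselves stood apart from each other in these genes. Of the 9 genes that were well above background on at least 3 arrays, that is all but Prlr, 7 had A-/G+ arrays at least 4-fold apart, against 8.65% of the 14831 gene symbols measured on as many arrays. Kl was 1 of the 7, and its lowest A-/G+ array was not above background. In 8 of the 9 the A-/G+ replicate 2 was the lowest and replicate 3 the highest of the A-/G+ arrays, an order that 15.5% of those gene symbols had. Ttr was the exception, being highest on replicate 1. These shares describe the arrays and carry no test, since a single array of each kind is concerned. The SD over the A-/G+ arrays had a median of 1.18 for these genes and 0.27 for all measured gene symbols, and over the A+/G+ arrays 0.34 and 0.11. The 95th percentile of this SD over all measured gene symbols was 1.31 in A-/G+ and 0.46 in A+/G+. In A-/G+ 1 of the 9 genes exceeded it, and in A+/G+ 0 of the 9. The A+/G+ arrays also had an order of their own, though a shallower one. Replicate 3 was the lowest A+/G+ array for all 9, against 33% of all measured gene symbols, and the largest A+/G+ span among them was 0.84 log2 units, for Aqp1. Each gene taken relative to its mean over the 6 arrays, the 10 genes had medians of 0.11, -0.10 and -0.52 in A+/G+. There, 8 markers of microglia and macrophages had 1.04, -0.16 and -1.32 and 8 neuronal markers 0.85, 0.32 and 0.07, also lowest on replicate 3, and their part in this order was not tested.

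The order of the A-/G+ arrays was also read under other scalings. After a shift to the 75th percentile, after normexp background correction and in the table that the authors normalized, A-/G+ replicate 2 was the lowest A-/G+ array for 9 of the 9 genes and replicate 3 the highest for 8. The intensities before any scaling also carry the brightness of each array as a whole, of which A-/G+ replicate 3 had the most in its fraction and replicate 1 the least. On that scale A-/G+ replicate 2 was the lowest A-/G+ array for 8 of the 9 genes and replicate 3 the highest for 9. Folr1 had intensities of 723, 551 and 7643 on A-/G+ replicates 1, 2 and 3, and Slc4a5 of 70.1, 44.8 and 585. Enpp2 was lowest on replicate 1, at 3918, 4706 and 19199, and Ttr became highest on replicate 3. The median of the 9 differences turned with the scaling from -0.25 after quantile normalization to 1.20 without scaling.

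**Figure D3:**
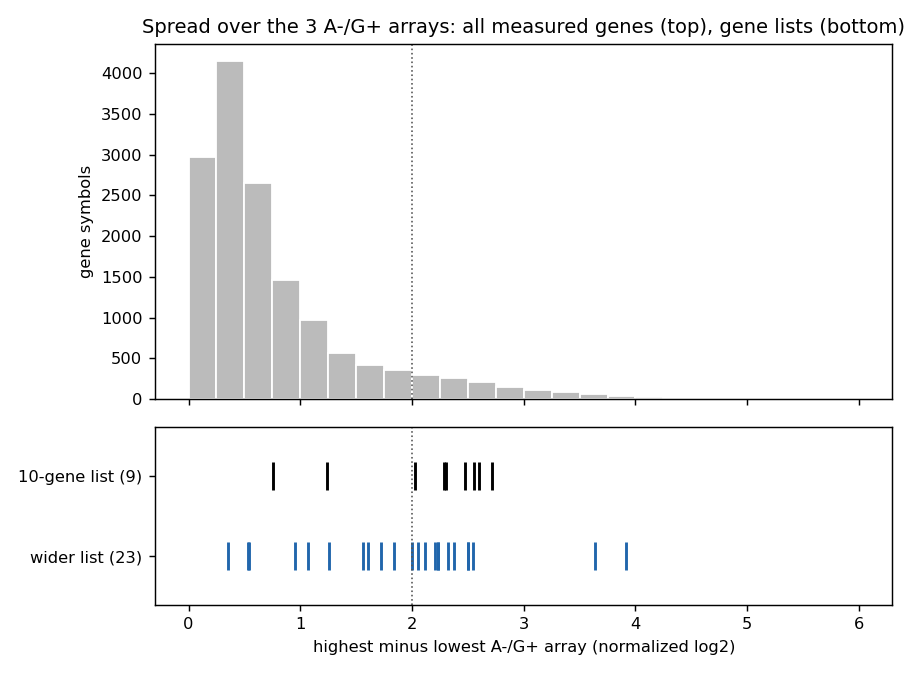
Distance between the highest and the lowest A-/G+ array (horizontal axis, normalized log2 units) for the 14831 gene symbols well above background on at least 3 arrays (histogram, number of gene symbols) and, as tick marks, for 9 choroid plexus genes and 23 genes of a wider choroid plexus list; the dotted line is at 2, that is 4-fold. To its right lie 7 of the 9, 13 of the 23 and 8.65% of all.

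Across the 6 arrays the genes followed each other. Over the 36 pairs among the 9 genes Pearson's r had a median of 0.93 and ran from 0.37, for Ttr with Otx2, to 0.998, for the closest pair, and over the 21 pairs without Ttr and Otx2 it ran from 0.88 with a median of 0.97. These values rest on 6 arrays, of which A-/G+ replicates 2 and 3 stand at the ends for most genes, and are a description. Among 3521 other genes that were above background on at least 3 arrays and spanned at least 4-fold, those most like Ttr over the 6 arrays included Gria2 (r = 0.96), Htr2c (0.96), Cldn2 (0.94), Vash1 (0.94), Nanos2 (0.93), Kcne2 (0.92), Smim22 (0.92), D030002E05Rik (0.91) and Gpx2 (0.90). Of these, the serotonin receptor Htr2c, the tight junction protein Cldn2 and the potassium channel subunit Kcne2 were on the wider choroid plexus list. The probe named Vash1 lies on chromosome 6 in the array's annotation while RefSeq has that gene on chromosome 12, so its name is uncertain.

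The wider list of choroid plexus epithelium held 26 genes that were not among the 10, of which 25 were on the array and 23 measured on at least 3 arrays. Igf2, a growth factor that the plexus secretes and that mesenchymal and vascular cells also make, was the only one called by limma, and the methods' t-test called none. It was higher in A+/G+, at 10.26, 10.49 and 10.28 against 9.14, 8.02 and 7.88 in A-/G+, a difference of 2.00 (SE 0.37, adjusted p = 0.0392). Its A-/G+ arrays did not have the common order, since replicate 3 was the lowest. The median difference of the 25 was -0.30, and 13 of the 23 had A-/G+ arrays at least 4-fold apart. Some of the 13, Cldn2 among them, were not well above background on every A-/G+ array. The lowest A-/G+ levels of those genes are bounds only. The order with A-/G+ replicate 2 lowest and replicate 3 highest was found in 16 of the 23. Kcne2 gave 9.97, 8.22 and 10.54 on the A-/G+ arrays and Htr2c 9.16, 7.16 and 9.40, while Cldn2 gave 8.73, 4.81 and 7.90. Of the genes of the list that varied less, Slc12a2 and Slc4a2 are named here after their values were seen. Slc12a2, the sodium potassium chloride cotransporter NKCC1, gave 10.57, 10.73 and 10.61 in A+/G+ and 10.41, 10.76 and 10.72 in A-/G+, and the anion exchanger Slc4a2 gave means of 9.99 ± 0.04 and 10.21 ± 0.31 (SD, n = 3 each).

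**Figure D4:**
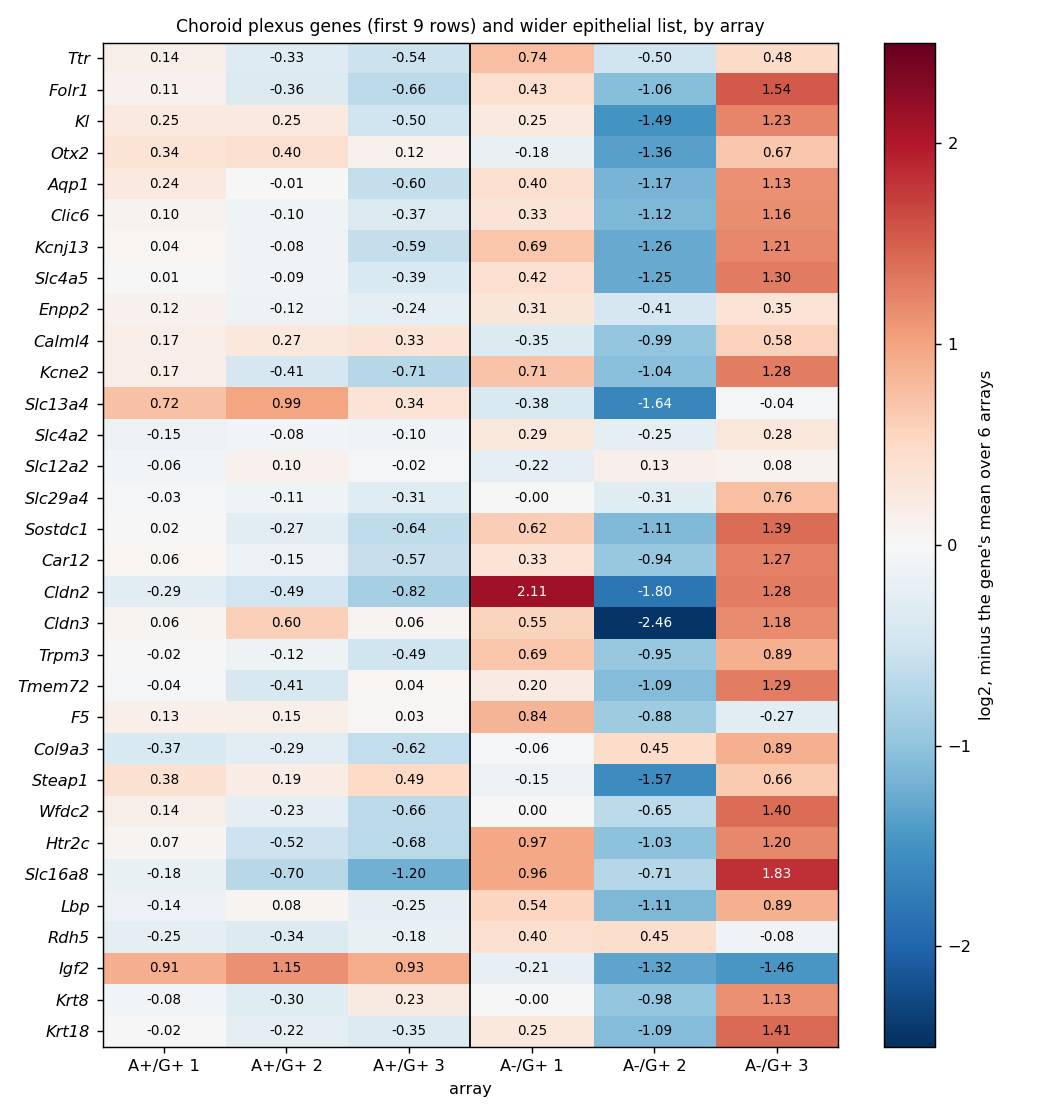
Normalized log2 intensity of 9 choroid plexus genes and of 23 genes of the wider list, each minus its mean over the 6 arrays (color and printed value), by array. Most rows are lowest on A-/G+ replicate 2 and highest on replicate 3, whereas Igf2 is higher on the 3 A+/G+ arrays.

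The known partners of the 10 genes were read list by list, against the 2.62% and 0.44% of all gene symbols called for each fraction. Counts of an unadjusted p under 0.05, here and in the lists below, stand against 30.3% of all gene symbols in limma. Among 10 genes of thyroid hormone and retinol handling, the system in which transthyretin acts, 1 was called, the retinol carrier Rbp4, which was higher in A+/G+ by 1.95 (SE 0.20, adjusted p = 0.0114). Of 10 folate genes none was called by limma or the methods' t-test, and 6 had an unadjusted p under 0.05 in limma. The reduced folate carrier Slc19a1 differed by 0.91 (adjusted p = 0.0091) and the proton-coupled carrier Slc46a1 by 0.02 (adjusted p = 0.961), neither reaching 4-fold. Of 8 klotho and FGF genes none was called by either test and 3 had an unadjusted p under 0.05, and Fgfr1, the receptor to which klotho couples, differed by -1.01 (adjusted p = 0.0132), which is below the 4-fold limit. Among 9 genes of prolactin receptor signalling, 1 was called, the feedback inhibitor Socs3, higher in A+/G+ by 2.68 (SE 0.35, adjusted p = 0.0175). Prolactin itself, Prl, looked up after the values were seen, was above background on no array. Among 14 genes of the autotaxin and lysophosphatidic acid system, the receptor Lpar3 was called higher in A+/G+ (adjusted p = 0.0080), but it was well above background on no A-/G+ array and no fold is given.

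Of 19 genes of water and ion transport beside the list, 3 were called. The potassium channel Kcnj16 was higher in A+/G+ by 4.14 (SE 0.19, adjusted p = 0.0031) and carbonic anhydrase Car2 by 2.89 (SE 0.32, adjusted p = 0.0127), while the sodium pump subunit Atp1b1 was higher in A-/G+, with a difference of -2.14 (SE 0.20, adjusted p = 0.0092). Of 13 genes of roof plate and choroid plexus development, Bmp6, a roof plate signal, was higher in A+/G+ by 2.23 (SE 0.22, adjusted p = 0.0099), and the homeobox gene Msx2 was higher in A-/G+, with a difference of -3.05 (SE 0.34, adjusted p = 0.0124). Neither of the pair had the array order of the 10 genes, A-/G+ replicate 3 lying below replicate 2 in both.

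Other cell types of the cerebellum and its coverings were read by their own marker lists on the same arrays. All 10 astroglial markers were above background on every array, among them Slc1a3, the GLAST gene, at 13.26, 13.31 and 13.61 in A+/G+ and 14.85, 14.92 and 14.00 in A-/G+. Of 13 markers of ependyma and motile cilia, which also line the ventricles, limma called 7 and the methods' t-test 4, all higher in A+/G+. All 13 had a higher mean there, with a median difference of 3.39. Within A-/G+ their median level, each gene taken relative to its mean over the arrays, was -1.55, -2.42 and -0.81 on replicates 1, 2 and 3, so that replicate 2 was lowest and replicate 3 highest, as for the 10 genes, whose medians were 0.41, -1.14 and 1.15. The 8 endothelial markers were also highest on replicate 3, at -1.37, -1.27 and 0.41, with a mean higher in A+/G+ for all 8. Limma called 1 of them, Slc2a1, and the methods' t-test called none. The 8 neuronal markers were at -0.87, -0.94 and 0.35 with none called by limma or the methods' t-test and 2 at an unadjusted p under 0.05. The 8 meningeal markers ran the other way, at -0.40, -0.82 and -1.81, with Slc6a13 and Foxc1 called higher in A+/G+. The 10 astroglial markers were at 0.05, 0.19 and -0.52. Limma called 1 of them, Gfap, which was higher in A+/G+ by 3.03 (SE 0.40, adjusted p = 0.0182). The methods' t-test called none, with an adjusted p of 0.0502 for Gfap. The summed intensity on the normalized scale was 5097, 2318 and 7825 for the ependymal list and 2301, 2347 and 9324 for the endothelial list on A-/G+ replicates 1, 2 and 3, against 20605 to 30060 and 10010 to 14847 in A+/G+. The part of these other markers in the result on the 10 genes was not tested.

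Pericyte and smooth muscle markers had a higher mean in A+/G+ for 7 of 7, with Rgs5 and Vtn called by limma. The methods' t-test called Vtn but not Rgs5 (adjusted p = 0.0957). Oligodendrocyte lineage markers had a higher mean in A+/G+ for 7 of 9, with Olig1 and Olig2 called. No marker of 8 for microglia and macrophages or of 6 for red blood cells was called by limma or the methods' t-test, with 1 and 4 of them at an unadjusted p under 0.05. The microglial markers Cx3cr1 and Csf1r were above background on all 6 arrays. Within A-/G+ the medians of the pericyte list were -1.0, -1.72 and -0.26, those of the red blood cell list -0.70, -0.80 and -0.08, and those of the thyroid hormone and retinol list -0.52, -0.97 and -0.01. Of the 18 lists, 7 thus had replicate 2 lowest and replicate 3 highest of the A-/G+ arrays, namely the 10 genes, the wider choroid plexus list, these 3 and the ependymal and neuronal lists. Taken over all 6 arrays, the same array was lowest and the same highest in 2 of the 7, the 10 genes and the wider choroid plexus list.

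**Figure D5:**
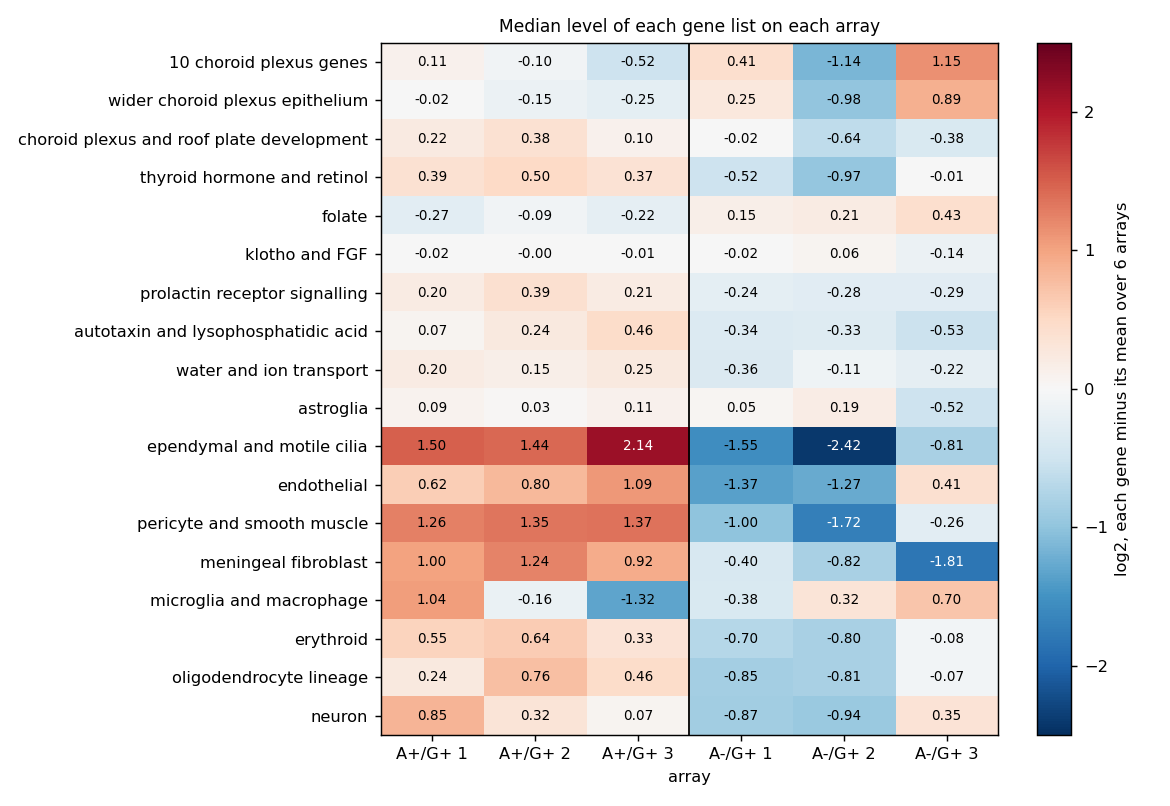
Median over each gene list of the normalized log2 intensity, each gene minus its mean over the 6 arrays (color and printed value), on each array (columns) for the 10 choroid plexus genes and the other lists (rows). The rows of the 10 genes and of the wider list have A-/G+ replicate 2 lowest and replicate 3 highest with the A+/G+ arrays between. Several other rows separate the fractions, among them the ependymal, endothelial, pericyte and meningeal rows.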

How the data were processed

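Each of the 6 samples was hybridised to its own 1-color array. The authors deposited a scanner file per array, with the background-corrected intensity of every spot from Agilent Feature Extraction 10.7.3.1. The authors also deposited a quantile normalized log2 table, used as an alternative. Positions of probes come from the array files, on mm9. The exon or UTR that a probe lies in was not determined.

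From the deposited intensity, control spots and outlier spots were left out, log2 values were quantile normalized, spots of a probe were averaged, and limma 3.58.1 (R 4.3.3) was fitted to the 55681 probes at once, with Benjamini-Hochberg adjustment over them. The limits for a call (adjusted p 0.05, medians 4-fold apart) were those of the study's methods, whose t-test was an alternative. The code was tested on simulated data. Where a gene had several probes, the brightest on average stood for it. Well above background is the scanner software's flag. A bound sets a dim fraction at the lowest signal well above background on each array, or at its own signal where that is higher. The number of arrays limits the precision. The labels call the samples biological replicates. The 10 genes and all lists were chosen with earlier results of these data known. Of the other lists, the text names genes that were called, otherwise genes among the 3 brightest, and the 10 genes most like Ttr, of which 1 is not reported here. Exceptions are stated, and Slc1a3 is given as the gene of the sorting antigen. Mfrp and Clic2 of the lists were not found among the array's symbols. Promoter letters are from RefSeq, GRCm38.p6, which was used for no position on mm9. The alternatives tried were the authors' table, normexp (offset 50), a 75th percentile shift, keeping outlier spots, filtering dim probes, limma with trend and robust variance, a 2-fold limit, averaging a gene's probes, leaving out each array and blocking on the replicate number.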

Additional observations from a re-analysis of the deposited data

How the results depend on the processing

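None of the 10 genes was called under any of the 16 alternatives, and the lowest adjusted p was 0.0501, for Prlr after the shift to the 75th percentile. The filter on dim probes dropped Prlr. The median of the 10 differences ran from -0.88 to 0.16 with arrays left out. Kl turned to -0.11 with the shift to the 75th percentile and -0.076 with normexp, and with arrays left out ran from -0.74 to 0.62. With arrays left out Folr1 ran from -1.29 to 0.014, Aqp1 from -0.89 to 0.26, Clic6 from -0.87 to 0.27, Kcnj13 from -1.16 to 0.073 and Slc4a5 from -1.02 to 0.26, the highest value being the one without A-/G+ replicate 3 in each. Over all alternatives run for them Ttr ran from -0.85 to -0.23, Otx2 from 0.041 to 1.05, Prlr from -2.49 to -0.36 (the latter with normexp) and Enpp2 from -0.41 to -0.03, each with its direction kept. The shift to the 75th percentile moved the median difference of all probes from -0.04 to -1.02, and that of measured gene symbols from 0.03 to -0.03.

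Over all probes there were 851 calls for A+/G+ and 222 for A-/G+. The shift to the 75th percentile turned the balance, with 604 and 938. The counts were 234 and 48 with normexp, 487 and 121 with the methods' t-test and 1797 and 1340 with the 2-fold limit. With a gene's probes averaged, 667 and 129 genes were called, against 630 and 106 with the brightest probe. With arrays left out the counts ran from 340 to 1458 and from 77 to 490, the highest in both cases without A-/G+ replicate 3 and the lowest without A+/G+ replicate 2. With a replicate block, limma called 0 probes for A+/G+ and 0 for A-/G+, with 11671 of 55681 at an unadjusted p under 0.05. The deviations of same-numbered arrays correlated at 0.20, 0.11 and -0.11 over 17949 probes, and only those numbered 1 correlated best with their own number, so the numbers were not taken as pairs. The slide could not be fitted as a block, since each slide held 1 fraction.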
